A study of Mus musculus with 12 samples.

Results

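Glutamate and GABA receptor subunit genes were followed in cortical RNA of WT and *Gde2*KO mice. The members were all genes whose symbol is that of an AMPA, kainate, delta or NMDA subunit, a metabotropic glutamate receptor, a GABA-A subunit named with a Greek letter from alpha to gamma, delta, theta or rho, or a GABA-B subunit. The rule gave 45 of the 36047 genes in the deposited table, 26 for glutamate and 19 for GABA receptors, with 227 annotated transcripts between them. Bulk RNAseq libraries were made from dissected cortices of WT and *Gde2*KO animals at 4 and at 19 months of age, 3 per group and 12 in all, 1 animal each. *Gde2*KO animals carry a global loss of *Gde2* (gene symbol *Gdpd5*), which encodes a cell surface enzyme that releases glycosylphosphatidylinositol-anchored proteins. The loss is therefore lifelong and in every cell type. Animals of both sexes were used in the study, but the sex of each library and the strain are not given in the sources used here.

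Glutamate carries fast excitation through AMPA, kainate and NMDA receptors, tetrameric ion channels whose subunit makeup sets their kinetics and calcium entry, and it acts more slowly through metabotropic receptors coupled to G proteins. GABA carries fast inhibition through GABA-A receptors, pentameric chloride channels that in cortex usually pair alpha and beta subunits with a gamma or a delta subunit, and slow inhibition through GABA-B receptors, obligate pairs of both *Gabbr* products. Cortex, hippocampus and striatum use the subunits in different proportions, with *Gabra5* and *Gria1* known for high expression in hippocampus.

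GABA-A subunit genes sit side by side in clusters. On GRCm38, *Gabrg1* (chr5:70751047-70842617), *Gabra2* (chr5:70957597-71095849), *Gabra4* (chr5:71569749-71658308) and *Gabrb1* (chr5:71658113-72149037) follow each other on chromosome 5. *Gabra6* (chr11:42306437-42321072) and *Gabrb2* (chr11:42419757-42629028) lie in a cluster on chromosome 11, and *Gabrg3* (chr7:56716465-57387188) and *Gabra5* (chr7:57407672-57510059) in one on chromosome 7. *Gabra4* and *Gabrb1* run in opposite directions and share 46 exonic bases, and *Grin3b* shares 1059 exonic bases with *Tmem259* on the other strand. Strand is not stated for the counting, so reads in such stretches cannot be assigned with certainty.

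The libraries differed in depth and in tissue markers, which bears on the receptor genes. Estimated reads per library ranged from 46434259 to 59728495 at 4 months. At 19 months they were 6734475 in WT library A, 3707928 in *Gde2*KO library A and 36915256 to 44604732 in the other 4. In WT libraries 1 and 2 of 4 months, 9 of 12 hippocampal markers were above the other 4 libraries of that age and 1 was below them. In the same pair, 11 of 12 striatal markers and all 6 upper-layer neuron markers were below them. Of 8 deep-layer neuron markers, 5 were below and 2 above. Their sum was nonetheless higher in the pair, at 488.6 and 486.9 TPM against 221.6 to 298.5 TPM. The summed striatal markers ranged from 343.2 to 2531.3 TPM in WT and from 1334.5 to 3428.3 TPM in *Gde2*KO cortices at 4 months, and the summed hippocampal markers from 286.5 to 723.5 TPM and from 313.2 to 329.9 TPM. At 19 months the striatal sums were 404.0 to 509.0 TPM in WT and 490.3 to 976.3 TPM in *Gde2*KO, and the hippocampal sums 207.1 to 223.1 TPM and 213.0 to 254.3 TPM. No marker of these lists was at 0 in all libraries. *Gdpd5* was at 684.5, 701.7 and 1199.5 normalized counts in WT and 417.1, 585.2 and 403.0 in *Gde2*KO at 4 months. Its log2 fold change was -0.85 (SE 0.25, limma adjusted p = 0.463). At 19 months it was at 1064.8, 1128.8 and 952.1 in WT and 440.5, 456.2 and 560.1 in *Gde2*KO. The log2 fold change there was -1.11 (SE 0.115, limma adjusted p = 0.0111). *Gdpd5* was lower in every *Gde2*KO library than in every WT library at both ages.

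The receptor genes of cortex were led by *Gabbr1*, the ligand-binding subunit of GABA-B receptors. Levels between genes are given in TPM, which are per length, as the mean ± SD over the 12 libraries. *Gabbr1* stood at 580.0 ± 15.9 TPM, with a range of 550.8 to 604.4. *Grin1*, the obligate NMDA subunit, followed at 272.7 ± 38.7 TPM and *Gria2*, the AMPA subunit that limits calcium entry, at 250.5 ± 43.0 TPM. No other member reached these 3 in mean level.

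The other classes had lower levels. *Grik5* led the kainate genes at 125.5 ± 11 TPM, above *Grik2* at 26.6 ± 9.24 TPM. The gamma subunit genes *Gabrg1* and *Gabrg3* stood at 9.02 ± 3.97 TPM and 7.28 ± 1.21 TPM, with ranges that overlapped, and the beta subunit gene *Gabrb2* at 64.7 ± 8.68 TPM. Among metabotropic genes *Grm5* led group I at 67.1 ± 26.8 TPM, *Grm7* led group III at 39.8 ± 5.47 TPM, and *Grm3* led group II at 30.2 ± 7.07 TPM, within the range of *Grm2* at 27.0 ± 4.92 TPM. *Gabrd*, whose product replaces the gamma subunit in extrasynaptic receptors, stood at 60.1 ± 22.2 TPM, and *Grid1*, a delta subunit that organizes synapses, at 20.1 ± 2.63 TPM.

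At the other end, *Gabra6*, a subunit of cerebellar granule cells, and the rho subunit genes *Gabrr1* and *Gabrr3*, known from retina, were near the limit of detection. Their means were 0.0718, 0.161 and 0.0342 TPM. *Gabra6* ranged from 0 to 2.75 normalized counts at 4 months, *Gabrr1* from 1.37 to 6.27 and *Gabrr3* from 0.69 to 2.42. These 3 genes did not reach 5 normalized counts in 47% of the libraries and were left out of the tests at 4 months and between ages. At 19 months *Gabra6* and *Gabrr1* passed that filter through the WT libraries, with 9.32, 5.93 and 7.21 normalized counts of *Gabra6* in WT and 0, 4.21 and 0.78 in *Gde2*KO. One read was worth 8.29 normalized counts in *Gde2*KO library A and 4.66 in WT library A, so that such values are at most a few reads there.

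**Figure D1:**
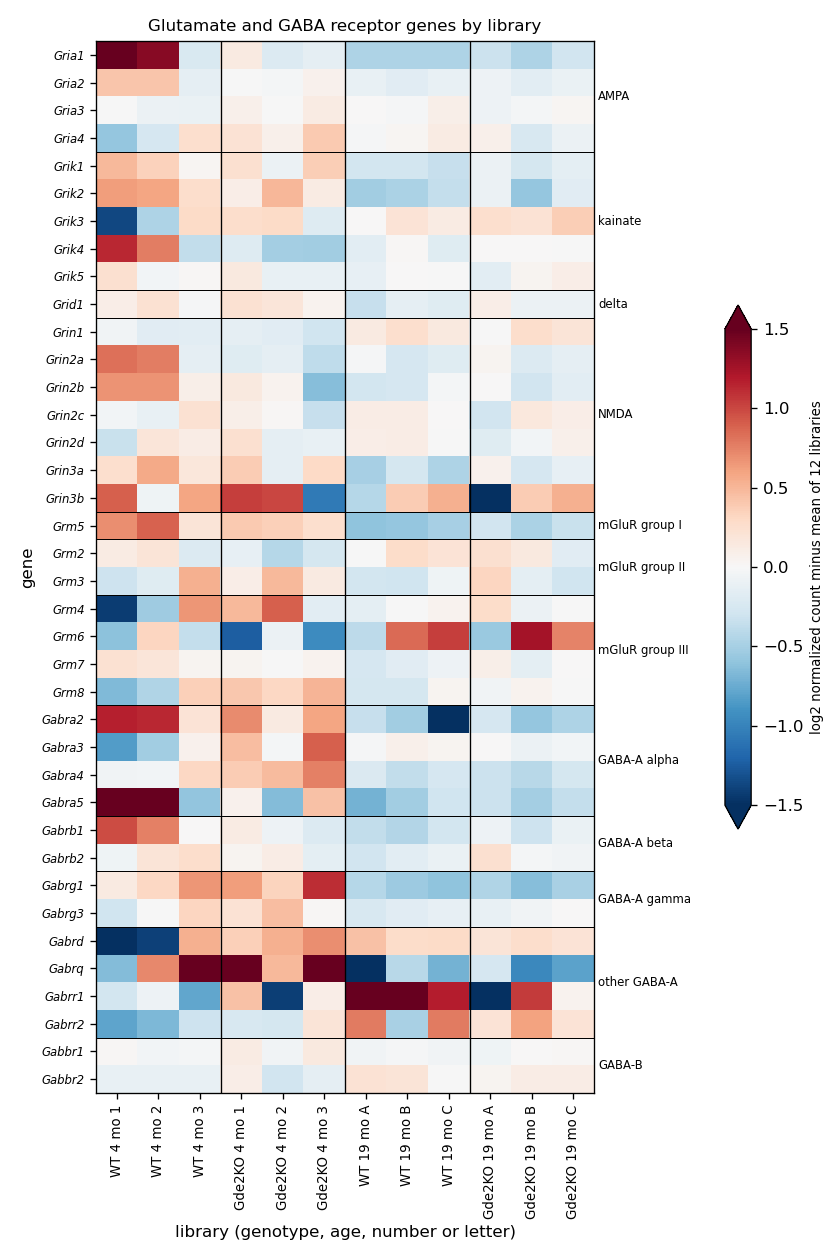
Log2 normalized count of 38 receptor genes (rows, by class) in the 12 libraries (columns), each minus the gene's mean over all libraries, red above and blue below, with the colour scale ending at 1.5 in both directions. WT libraries 1 and 2 of 4 months differ from the rest in *Gria1*, *Gabra5*, *Grin2a* and *Gabrd*; *Gabra6* and *Gabrr3*, with means under 5 normalized counts, are not drawn.

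WT libraries 1 and 2 of 4 months stood apart in receptor genes as well as in markers. *Gria1*, an AMPA subunit central to hippocampal plasticity, was at 37181 and 33058 normalized counts in these libraries, against 11011 in WT library 3 and 14142, 11133 and 11676 in the *Gde2*KO libraries. *Gabra5*, the alpha subunit of extrasynaptic receptors in hippocampus, was at 6457 and 6365, against 1285 in WT library 3 and 2018, 1229.7 and 2622 in *Gde2*KO. *Grin2a*, the NMDA subunit that gives fast decay, was at 16860 and 16234, against 8688 in WT library 3 and 8377, 8649 and 7287 in *Gde2*KO. For these 3 genes both libraries lay above the other 4 of their age, and WT library 3 lay near the *Gde2*KO libraries.

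*Gabrd* showed the opposite order. It was at 325.8 and 635.7 normalized counts in WT libraries 1 and 2, 2432 in WT library 3 and 2159, 2429.8 and 2721 in *Gde2*KO. The makeup of the receptor classes moved with these values. *Gria1* made up 45.0% and 42.2% of the summed AMPA subunit TPM in WT libraries 1 and 2 and between 20% and 26.9% in the other 10 libraries. *Gabra5* made up 29.4% and 27.7% of the summed alpha subunit TPM in that pair and 6.44% to 9.62% elsewhere. The hippocampal, striatal and upper-layer markers moved in the same libraries, and 9 of 10 microglia and 7 of 8 oligodendrocyte markers were also below the other 4 libraries of that age. In bulk tissue, fewer cells of a type and less RNA per cell cannot be told apart.

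The comparison of *Gde2*KO with WT cortices at 4 months asks whether loss of *Gde2* goes with a difference in receptor mRNA in young adult cortex. No receptor gene was called. Of 42 members tested, 0 passed an adjusted p of 0.1 together with a natural-log change of 0.5, which is 0.72 on the log2 scale, where 0.126% of all 19035 genes did. At an unadjusted p under 0.05 there were 10 of the 42 members and 2025 of the 19035 genes. The smallest adjusted p of the members was 0.463. The median log2 fold change was -0.09 over the members and 0.11 over all genes. That shift of all genes was 0.01 when the libraries were rescaled by median-of-ratios factors. The groups did not overlap for 4 members, 3 higher and 1 lower in *Gde2*KO, which is 9.52% of the members, against 15.4% of all genes. *Gabrr2* was 1 of these, with 12.3 to 17.3 normalized counts in WT and 17.9 to 24.8 in *Gde2*KO.

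The members of smallest p included *Gabra3*, *Gabra4*, *Grin2a* and *Grik4*. *Gabra3* was at 2094, 2600.0 and 3894 normalized counts in WT and 5138, 3649 and 6975 in *Gde2*KO (log2 fold change 0.88, SE 0.29, limma adjusted p = 0.463), and the groups overlapped. *Gabra4*, an alpha subunit of extrasynaptic receptors, was at 3262, 3298 and 4206 in WT and 4393, 4686 and 5729 in *Gde2*KO (log2 fold change 0.46, SE 0.16, same adjusted p). For *Gabra4* the groups did not overlap, and *Gde2*KO library 3, which also had the largest total of all libraries, was the highest for both genes.

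*Grin2a* and *Grik4*, a high-affinity kainate subunit, were lower in *Gde2*KO, by 0.72 (SE 0.25) and 0.92 (SE 0.35) on the log2 scale, a difference that did not pass the test. *Grik4* was at 2192, 1702 and 771.6 normalized counts in WT and 874.7, 701.1 and 694.3 in *Gde2*KO, so that WT library 3 fell within the *Gde2*KO range. Without WT libraries 1 and 2, the log2 fold change of *Grin2a* went from -0.72 to -0.10 and that of *Grik4* from -0.92 to -0.04. The values of *Gabra3* and *Gabra4* were then 0.38 and 0.22. With the hippocampal or the striatal marker score as a covariate, *Grin2a* was at -0.21 or -0.29, *Grik4* at -0.15 or -0.25, *Gabra3* at 0.51 or 0.66 and *Gabra4* at 0.26 or 0.33, and 0 members had an unadjusted p under 0.05 in either fit. With all libraries but WT library 3, 11 members were called, 5 of them higher (*Gabrd*, *Gabra3*, *Grik3*, *Grm4* and *Grm8*) and 6 lower (*Gria1*, *Gabra5*, *Grin2a*, *Grik4*, *Gabrb1* and *Grin2b*). That fit compares *Gde2*KO with WT libraries 1 and 2 alone, and it called 8.03% of all genes.

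**Figure D2:**
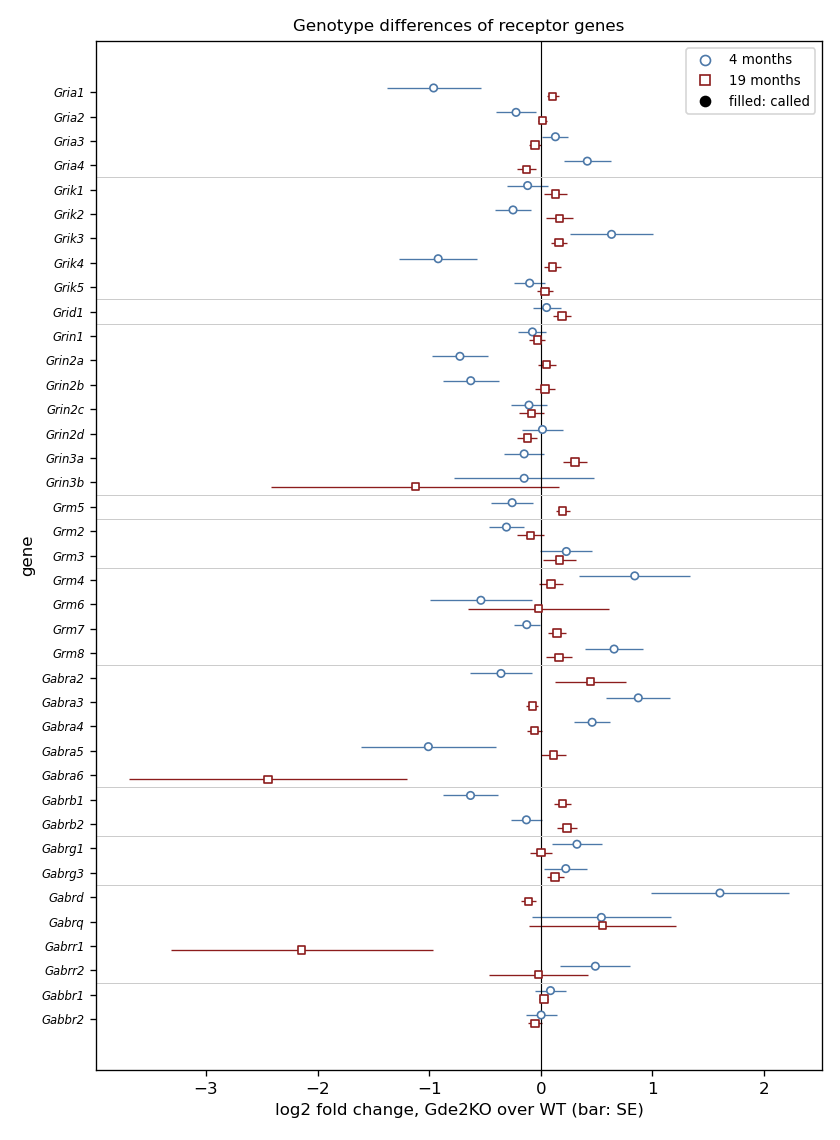
Log2 fold change of each tested receptor gene, *Gde2*KO over WT, with its SE, at 4 months (circles, 37 genes) and at 19 months (squares, 39 genes); filled symbols would mark called genes. No symbol is filled, and the SE at 4 months is above that at 19 months for most genes, *Gabra2* and *Gabrq* among the exceptions.

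No receptor gene was called between genotypes at 19 months either. Of 44 members tested, 0 were called where 0.0969% of all 18583 genes were. An unadjusted p under 0.05 was found for 8 of the members and for 1285 of all genes. The smallest adjusted p of the members was 0.625. The median log2 fold change was 0.04 over the members and -0.02 over all genes. The groups did not overlap for 11 members, 8 higher and 3 lower in *Gde2*KO, which is 25% of the members, against 14.2% of all genes, and 2 of the 3 lower members were *Gabra6* and *Gabrr1*, which passed the filter through WT.

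The 5 members of smallest p, *Grm5*, *Grin3a* and *Gabrb2* among them, were all higher in *Gde2*KO. *Grm5*, the main group I metabotropic receptor of forebrain, was at 4505, 4579 and 4861 normalized counts in WT and 5623, 4934 and 5440.2 in *Gde2*KO (log2 fold change 0.20, SE 0.06, limma adjusted p = 0.625). *Grin3a*, an NMDA subunit that lowers calcium entry, was at 806.0, 949.2 and 829.8 in WT and 1194, 960.0 and 1050.6 in *Gde2*KO (log2 fold change 0.31, SE 0.10, limma adjusted p = 0.647). Every *Gde2*KO library was above every WT library for these genes, and the highest value of each was in the shallow *Gde2*KO library A. *Gabrb2*, a beta subunit, was at 3732, 4074 and 4235 in WT and 5374, 4453 and 4373 in *Gde2*KO, again without overlap (log2 fold change 0.23, SE 0.09, limma adjusted p = 0.697), and again highest in library A. Without *Gde2*KO library A its log2 fold change was 0.14, and without both libraries of low depth it was 0.09, that of *Grin3a* 0.18 and that of *Grm5* 0.14.

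*Gabra2*, the alpha subunit of axon initial segment synapses, had 1 library that stood apart at 19 months. It was at 3436, 3027 and 1277 normalized counts in WT libraries A, B and C, and at 3674, 2905 and 3151 in *Gde2*KO. WT library C was deeply sequenced, with 43351824 estimated reads, so that its low value is not one of few reads. *Gabra2* made up 4.48% of the summed alpha subunit TPM there and 9.36% to 11.4% in the other 5 libraries of that age. The neighbouring genes *Gabrg1*, *Gabra4* and *Gabrb1* were at 437.6, 2846 and 3781 normalized counts in that library, where the other WT libraries of that age held 455.5 to 493.8, 2627 to 2898 and 3358 to 3527, so that no like drop was seen in them.

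Between 4 and 19 months, 10 receptor genes fell and 1 rose in WT cortices. Age and any difference in when or how the libraries were made cannot be told apart here. Of 42 members tested, 11 were called, 26.2% of them, where 13.7% of all 18731 genes were. Of the 11, 10 were lower at 19 months, 23.8% of the members, where 7.40% of all genes were called lower. The median log2 fold change was -0.31 over the members and -0.07 over all genes. By class, the called members included *Grm5* of group I, *Gabra2* and *Gabra5* of the alpha genes, *Gabrb1*, *Gabrg1*, *Gabrq*, *Gabrd*, the kainate gene *Grik2*, the AMPA gene *Gria1* and the NMDA gene *Grin3a*.

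*Grm5* had the smallest p. It was at 11112, 12685 and 7816 normalized counts at 4 months and 4505, 4579 and 4861 at 19 months in WT (log2 fold change -1.15, SE 0.14, limma adjusted p = 0.000572). *Gabrg1* was at 731.7, 825.0 and 1052.3 at 4 months and 493.8, 455.5 and 437.6 at 19 months (log2 fold change -0.90, SE 0.18, limma adjusted p = 0.00807). *Grik2*, a kainate subunit of presynaptic and postsynaptic receptors, was at 3196, 3114 and 2482 and then 1442, 1493 and 1617.0 (log2 fold change -0.94, SE 0.15, limma adjusted p = 0.00265). All 3 WT libraries of 19 months were below all 3 of 4 months for each of these genes. Ages in WT did not overlap for 42.9% of the members. Among all 18731 genes, 5010 were lower and 3614 higher at 19 months without overlap.

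Several other called members, like *Grm5* and *Grik2*, had their extreme values in WT libraries 1 and 2. *Gabra2* was at 9822, 9518 and 5032 normalized counts at 4 months in WT (log2 fold change -1.72, SE 0.34, limma adjusted p = 0.00712). *Gabrb1* was at 8964, 7668 and 4562 at 4 months and 3358 to 3781 at 19 months (log2 fold change -0.94, SE 0.20, limma adjusted p = 0.00903). *Gria1* fell from the values given above to 9309, 9322 and 9343 (log2 fold change -1.35, SE 0.34, limma adjusted p = 0.0182), and *Gabra5* to 1179, 1346 and 1577 (log2 fold change -1.47, SE 0.49, limma adjusted p = 0.0568). *Gabrd* was the 1 called member that rose, to 2278, 2033 and 2058 (log2 fold change 1.41, SE 0.50, limma adjusted p = 0.0676), and its WT library 3 of 4 months was above all of these.

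*Grin3a* was at 1365, 1697 and 1280.4 normalized counts at 4 months in WT and at the values given above at 19 months (log2 fold change -0.74, SE 0.15, limma adjusted p = 0.00836). *Gabrq*, which encodes the theta subunit, was low throughout, at 18.9, 49.7 and 117.4 normalized counts at 4 months and 4.66, 22.2 and 18.1 at 19 months (log2 fold change -1.91, SE 0.67, limma adjusted p = 0.0673). Without WT libraries 1 and 2 of 4 months, *Grm5* (log2 fold change -0.75), *Gabrg1* (-1.19) and *Gabrq* (-3.18) kept their call. The share of all genes called was also lower in that fit. *Gabrq* was not called without WT library 2 (log2 fold change -1.88, limma adjusted p = 0.165) or 3 (-1.27, 0.186) of 4 months. Nor was it called without WT library A of 19 months (-1.24, 0.233) or without both libraries of low depth (-1.24, 0.216). *Grin3a* was not called without WT library 2 of 4 months (-0.62) or without WT library A (-0.70, also with median-of-ratios scaling) or C (-0.72) of 19 months, in each case for its size alone. The fit without WT libraries 1 and 2 rests on 1 WT library of 4 months, which is assumed to vary like the other groups, and in it the other members lost their call. *Gabra2* then had a log2 fold change of -1.09, *Grik2* of -0.71, *Gabrb1* of -0.36 and *Gria1* of -0.24. *Gabra5* was at 0.08 and *Gabrd* at -0.20, so both changed sign. The count of called members was 7 without WT library 2 of 4 months, 16.7% of the members against 8.23% of all genes. It was also 7 without WT library A of 19 months, against 9.84% of all genes. Without both libraries of low depth it was 7 again, 16.7% of the members against 13% of all genes. Without WT library 3 of 4 months it was 16, 38.1% of the members against 16.7% of all genes. Markers moved between the ages as well. In WT, 9 of 12 hippocampal, 3 of 8 oligodendrocyte and 1 of 12 striatal markers were called lower at 19 months, and 5 of 6 upper-layer and 4 of 5 blood markers higher. Apart from the fits without libraries, their part in these falls was not tested.

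**Figure D3:**
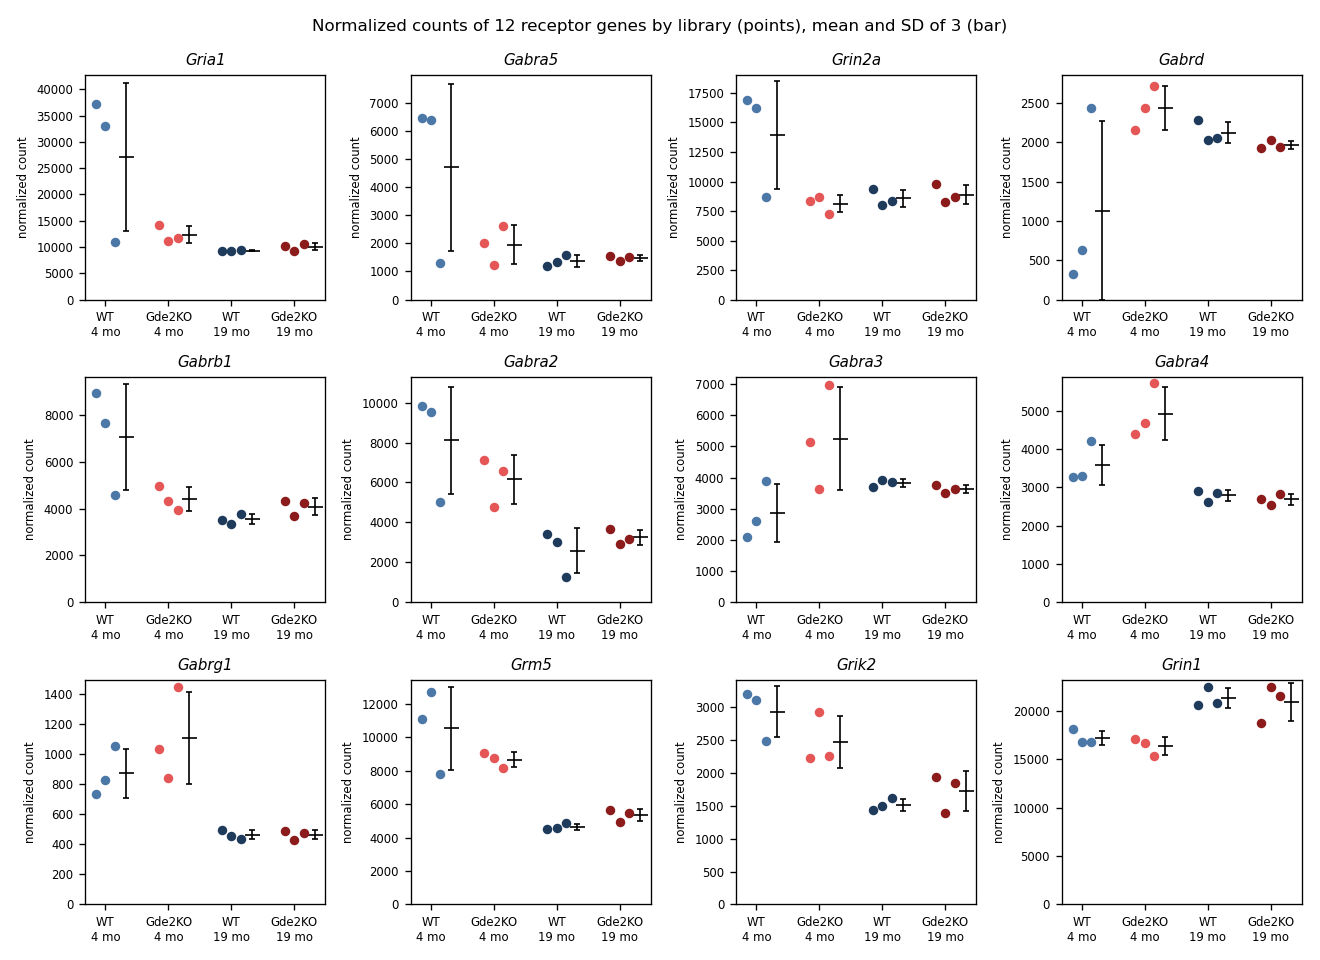
Normalized counts of 12 receptor genes in each library (points, left to right 1 to 3 or A to C) with the mean and SD of 3 libraries per group (dash and error bar). *Grm5*, *Gabrg1* and *Gabra4* are lower in all 6 libraries of 19 months than in all 6 of 4 months, and *Gria1*, *Gabra5*, *Grin2a* and *Gabrd* show the separate pair of WT libraries at 4 months.

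In *Gde2*KO cortices, whose libraries did not include that pair, fewer members passed both thresholds between 4 and 19 months. The spread was estimated over the libraries of all groups, so the pair still entered the SE and p-values of this comparison. Of 42 members, 4 were called, 9.52% of them, where 11.9% of all genes were, and all 4 were lower, where 9.32% of all genes were called lower. The median log2 fold change was -0.29 over the members and -0.21 over all genes, and the latter was -0.04 after median-of-ratios scaling. The 4 called genes were *Gabra4*, *Gabrg1*, *Gabra2* and *Gabrq*. *Gabrb1*, which lies beside the first 3 on chromosome 5, had a log2 fold change of -0.11 (limma adjusted p = 0.711).

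*Gabra4* was at 4393, 4686 and 5729 normalized counts at 4 months and 2704, 2536 and 2819 at 19 months in *Gde2*KO (log2 fold change -0.87, SE 0.12, limma adjusted p = 0.0018). *Gabrg1* was at 1028.8, 841.3 and 1442.0 and then 489.3, 427.0 and 475.0 (log2 fold change -1.22, SE 0.18, limma adjusted p = 0.00276). *Gabra2* was at 7132, 4768 and 6591 and then 3674, 2905 and 3151 (log2 fold change -0.91, SE 0.34, limma adjusted p = 0.0742). *Gabrq* was at 96.8, 42.2 and 85.4 and then 25.0, 15.0 and 16.9 (log2 fold change -1.90, SE 0.67, limma adjusted p = 0.0619). The groups did not overlap for these 4 genes. Non-overlap was common, at 38.1% of the members. Among all 18731 genes, 5607 were lower and 2109 higher at 19 months without overlap. With median-of-ratios scaling the log2 fold changes of *Gabra4* and *Gabra2* were -0.70 and -0.75 and neither was called, *Gabra4* for its size alone (limma adjusted p = 0.00302). The count was then 2, 4.76% of the members against 8.92% of all genes. It was also 2 without *Gde2*KO library 1 of 4 months, without library B or without library C of 19 months. All genes were then called at 10.8%, 9.85% and 11.2%. *Gabrg1* was called in both genotypes whichever single library was left out. All 12 striatal markers had lower fitted values at 19 months in *Gde2*KO, 3 of them called and 10 without overlap, and all 8 oligodendrocyte markers did, 3 of them called. Their part in the receptor values was not tested.

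*Grm5*, *Grik2* and *Grin1* passed the adjusted p but not the fold threshold in *Gde2*KO. *Grm5* was at 9035, 8770 and 8173 normalized counts at 4 months and 5623, 4934 and 5440.2 at 19 months (log2 fold change -0.70, SE 0.14, limma adjusted p = 0.0102). *Grik2* had a log2 fold change of -0.52 (SE 0.15, limma adjusted p = 0.0321). *Grin1* was at 17120, 16695 and 15284 and then 18735, 22475 and 21502, higher in every library of 19 months (log2 fold change 0.35, SE 0.09, limma adjusted p = 0.0248). In WT, *Grin1* had a log2 fold change of 0.31 (SE 0.09, limma adjusted p = 0.0413), with 16770 to 18075 normalized counts at 4 months and 20607 to 22468 at 19 months. *Gabbr1*, *Gabbr2*, *Gabrg3* and the AMPA gene *Gria3* passed neither threshold in either genotype.

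**Figure D4:**
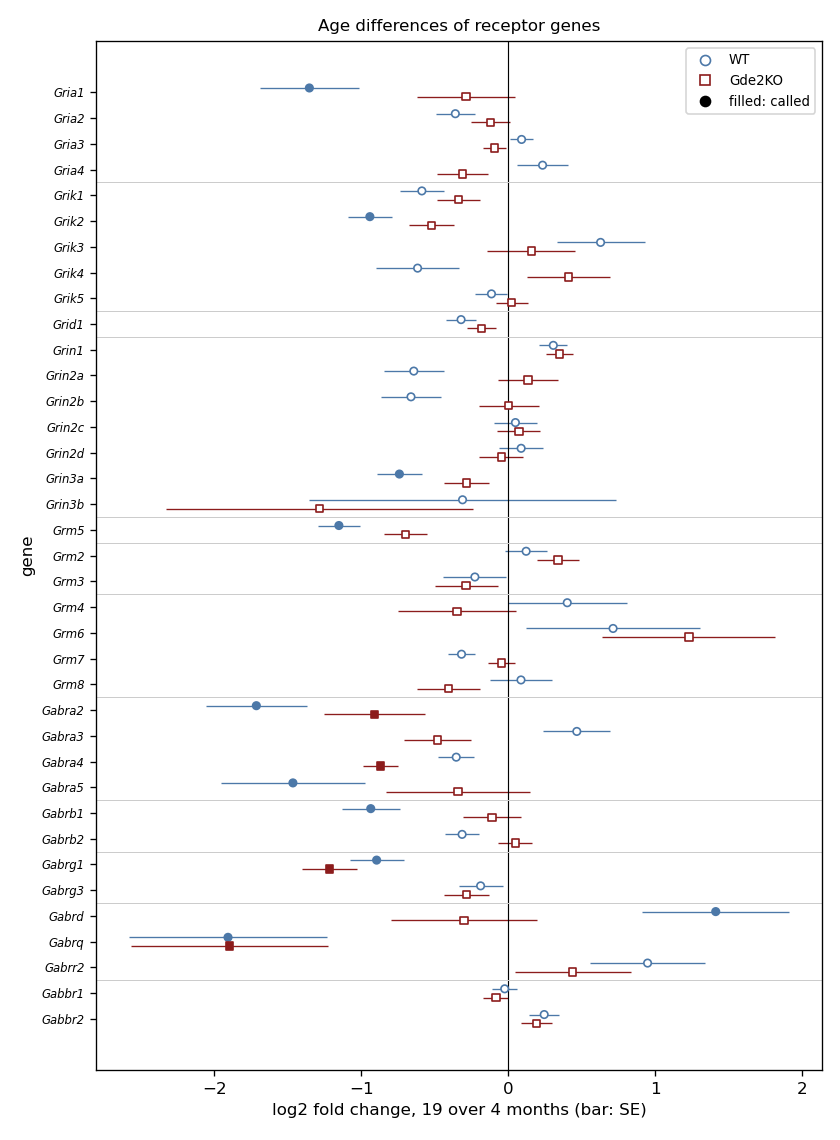
Log2 fold change of 37 receptor genes, 19 over 4 months, with its SE, in WT (circles) and *Gde2*KO (squares); filled symbols mark called genes. *Gabra2*, *Gabrg1* and *Gabrq* are filled in both genotypes, *Gabra4* in *Gde2*KO, and *Gria1*, *Grik2*, *Grin3a*, *Grm5*, *Gabra5*, *Gabrb1* and *Gabrd* in WT.

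Whether the age differences themselves depended on genotype was tested as an interaction over all 12 libraries. Calls here needed an adjusted p under 0.1 alone, without the fold threshold. No member was called, 0 of 42, where 0.0480% of all genes were. An unadjusted p under 0.05 was found for 13 members and for 2408 of all 18731 genes. The smallest adjusted p of the members was 0.368. A call in 1 genotype and not in the other therefore does not show that the genotypes differed. The members of smallest p included *Gabra4* (log2 difference -0.52, SE 0.17), *Gabrb1* (0.83, SE 0.28) and *Gabra3* (-0.95, SE 0.32), all at a limma adjusted p of 0.368. Without WT libraries 1 and 2 of 4 months these values were -0.28, 0.25 and -0.46, and 1 member had an unadjusted p under 0.05. Without WT library 3 of that age in place of them, 16 members were called, with 11% of all genes.

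Several receptor genes are spliced into forms of different function, and the transcripts that carry an exon could be compared. AMPA subunit genes hold an alternative pair of exons, flop and then flip in the order of transcription, which alter desensitization of the channel. The *Gria2* exons (chr3:80690404-80690518 for flip and chr3:80691320-80691434 for flop, GRCm38, minus strand) are shown as the most expressed AMPA gene, read 5′ to 3′ from the GENCODE vM21 transcripts, with capitals at the 36 positions where they differ.
Gria2 flip: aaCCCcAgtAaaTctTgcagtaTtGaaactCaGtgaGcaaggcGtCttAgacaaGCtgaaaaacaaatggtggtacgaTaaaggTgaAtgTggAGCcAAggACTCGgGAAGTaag
Gria2 flop: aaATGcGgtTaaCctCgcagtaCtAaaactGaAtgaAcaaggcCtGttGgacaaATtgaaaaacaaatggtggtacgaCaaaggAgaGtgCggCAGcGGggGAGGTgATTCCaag

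The other forms compared are single exons that are kept or skipped. *Grin1* carries an exon of 63 bases (chr2:25311343-25311405, minus strand) in the extracellular amino-terminal domain, named N1, and an exon in the intracellular tail, named C1. The sequence of N1 is shown because its share differed between ages.
Grin1 exon N1: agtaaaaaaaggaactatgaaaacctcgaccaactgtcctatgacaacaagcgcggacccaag

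The share of *Grin1* transcripts with exon N1 was higher at 19 months. It was 12.7%, 13.0% and 28.3% in WT and 26.1%, 24.9% and 26.8% in *Gde2*KO at 4 months, and 29.3%, 35.7% and 27.5% in WT and 32.7%, 31.5% and 30.1% in *Gde2*KO at 19 months. With both genotypes pooled, 6 libraries against 6, the difference was 9.18 percentage points (two-sided exact permutation test, p = 0.00433, adjusted p = 0.0152 over the 7 exons compared). The lowest values were those of WT libraries 1 and 2. Without them the difference was 4.64 points, but only 1 WT library of 4 months was left, so that age was mixed with genotype. That library, at 28.3%, lay within the 27.5% to 35.7% of WT at 19 months.

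The flip share was taken of the summed TPM of the compared transcripts alone, not of the whole gene. Single transcripts outside the comparison held 52.73% of *Gria4* TPM and 28.41% of *Gria3* TPM in WT at 4 months. Over the 12 libraries the flip share ranged from 88.9% to 98.7% in *Gria3* and from 64.9% to 75.3% in *Gria2*. It ranged from 39.9% to 53.9% in *Gria1* and from 20% to 31.9% in *Gria4*. As a share of normalized counts, which are not per length, the flip form ranged from 40.7% to 53.1% in *Gria2* and from 40.6% to 54.6% in *Gria1*, so the order of these 2 genes rests on the scale. *Gria3* and *Gria4* remained at the ends on both scales. Between ages *Gria3* was 3.69 points higher and *Gria1* 3.41 points lower at 19 months, with adjusted p of 0.0808 and 0.0947 by the same exact permutation test. Neither stayed under an adjusted p of 0.1 without WT libraries 1 and 2 or without the pair of low depth. Between genotypes, 3 against 3 libraries cannot go below p = 0.1 in the exact permutation test, so no difference could pass, and the smallest adjusted p was 0.35. The *Gria2* flip share of TPM did not overlap between genotypes at either age. It was 75.3%, 73.4% and 73.1% of TPM in WT and 71.0%, 70.6% and 64.9% in *Gde2*KO at 4 months, and 68.4%, 71.2% and 71.4% in WT and 71.5%, 75.0% and 73.5% in *Gde2*KO at 19 months. *Gde2*KO was thus 5.08 points lower at 4 months and 2.97 points higher at 19 months (two-sided exact permutation test, p = 0.1 at each age). The transcripts compared also differ outside the exon. The flip transcript of *Gria2* is 4026 bases long and the flop transcript 10371. In *Gria3* the flip transcript is 5192 bases long and the flop transcripts 3081 and 2667. With normalized counts in place of TPM the mean *Gria2* flip share was 48.2% in place of 71.4% at 4 months. The differences between groups kept their direction, but at 19 months WT library C and *Gde2*KO library A then both stood at 48.1%. These exons were picked after the transcript values had been seen.

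**Figure D5:**
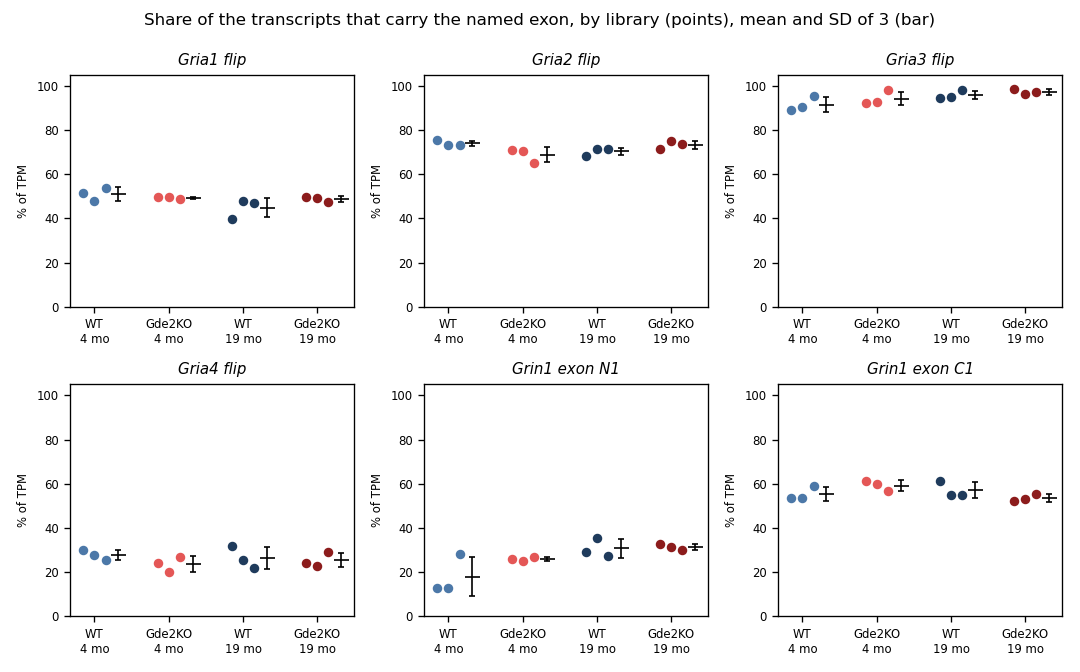
Share of the summed TPM of a gene's compared transcripts that carry the named exon, in percent, for each library (points) with the mean and SD of 3 libraries per group (bars). *Grin1* exon N1 is lowest in WT libraries 1 and 2 of 4 months, at 12.7% and 13.0%, and the flip share is highest in *Gria3*, at 88.9% or more, and lowest in *Gria4*, at 31.9% or less.

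Transcript usage between genotypes was also tested over all genes with at least 2 transcripts of sufficient level. At 4 months 0 of 37 members were called where 0.997% of all genes were, with 3 members at an unadjusted p under 0.05 and a smallest adjusted p of 0.191 (limma). *Grin2a* had that smallest value, with a transcript at 87.81% of its TPM in WT and 89.17% in *Gde2*KO. At 19 months 0 of 38 were called where 0.171% of all genes were, again with 3 at an unadjusted p under 0.05, and *Grin2a* had the smallest adjusted p, 0.241 (limma). Without both libraries of low depth 1 of 38 members, *Grin3a*, was called at 19 months. That is 2.63% of the members, where 1% of all genes were called.

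The 9 lists of related genes covered auxiliary subunits, scaffolds, receptor ligands, glutamate and GABA transport and metabolism, and receptor subunits outside the rule. Of the 88 genes tested, 0 were called between genotypes (limma), where 0.126% of all genes were at 4 months and 0.0969% at 19 months. At an unadjusted p under 0.05 there were 20 at 4 months and 12 at 19 months. Of all genes, 2025 of 19035 and 1285 of 18583 had such a p. The interaction called 0 of the 88, where 0.0480% of all genes were called. There, 24 of the 88 and 2408 of all 18731 genes were under that unadjusted p. Between ages in WT, 16 of these genes were called, 18.2% of them, against 13.7% of all genes. All 3 WT libraries of 4 months entered that fit, and without WT libraries 1 and 2 the share of all genes called was 2.77%. Of 15 AMPA auxiliary subunit genes, 2 rose and 3 fell, *Cnih2* among them (log2 fold change -1.30, SE 0.26, limma adjusted p = 0.00719). *Neto1*, a partner of kainate and NMDA receptors, fell by 1.08 on the log2 scale (SE 0.17, limma adjusted p = 0.00219), as did *Kctd12*, a partner of GABA-B receptors, by 1.34 (SE 0.25, limma adjusted p = 0.00501), and *Slc17a8*, a vesicular glutamate transporter, by 1.03 (SE 0.18, limma adjusted p = 0.00432). *Cbln2*, a ligand of delta receptors, rose by 1.27 (SE 0.32, limma adjusted p = 0.0197), and *Ablim1* and *Gls2* also rose, with *Grip1* and *Kctd12b* among those that fell. *Gabrp* was also called higher, but it passed the filter only through the libraries of 19 months.

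In *Gde2*KO, 9 genes of these lists were called between ages, 10.2% of them, against 11.9% of all genes. *Shank1*, a postsynaptic scaffold, rose by 0.74 on the log2 scale (SE 0.12, limma adjusted p = 0.00377). *Gabarapl2*, which takes part in receptor trafficking, fell by 0.88 (SE 0.17, limma adjusted p = 0.00781), and the AMPA auxiliary genes *Cacng5* and *Cacng4* fell by 0.73 and 0.79 (SE 0.18 and 0.30, limma adjusted p = 0.0206 and 0.0816). The glycine receptor genes *Glra2* and *Glra3* fell by 1.91 and 1.01 (SE 0.36 and 0.32, limma adjusted p = 0.00775 and 0.0447), *Kctd12b* and *Slc6a12* also fell, and *Gabrp*, a pi subunit gene that the naming rule leaves out, was called higher as in WT, with no fold given because it was at or near 0 at 4 months.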

How the data were processed

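Polyadenylated RNA of mouse cortex was sequenced in paired reads. Per the labels and the study's methods, the authors quantified transcripts with kallisto and sleuth. The submitters' processing notes also name bcl2fastq 2.17, Trimmomatic 0.36 and STAR 2.5.2b, of which the last 2 are described for a splicing analysis not used here. The deposited tables hold normalized estimated counts per transcript (a signal scaled between libraries) and TPM. TPM columns do not sum alike, since the authors rescaled them too. Columns of 19 months are unnumbered in the tables and are named A, B and C in column order.

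Normalized counts of 118489 transcripts were summed per gene, leaving out 1673 without a gene (0.541% to 0.605% of a library). The quantification's per-library uncertainty was not used here, so limma 3.58.1 (R 4.3.3) took the place of sleuth, on log2(value + 0.5), so that fold changes of low genes are understated. Genes with at least 5 normalized counts in 47% of the libraries compared were tested. Each genotype comparison used the 6 libraries of its age, and the age comparisons and the interaction all 12. Calls needed both a natural-log change of 0.5 and a p of 0.1 after Benjamini-Hochberg adjustment. The interaction was called at the adjusted p alone. A transcript switch needed that adjusted p and a difference of 10 points. Depth was estimated from the commonest low nonzero transcript value of each library, taken as 1 read. This made 47.0% to 62.9% of gene values whole within 0.01 reads, too few for a count test. Alternatives covered scaling, filter, pseudocount, TPM, covariates and left-out libraries. Scripts were tested on simulated data. Exon shares were compared by exact permutation tests (SciPy 1.17.1).

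Named genes were the called members, the highest of each class, the 5 of smallest p per comparison, members that failed the filter, called genes of the pathway lists (at most 10 a comparison) and *Gdpd5*. *Grik3*, *Grm4*, *Grm8*, *Grin2b*, *Gabrr2* and others beyond the rule were named after their values were seen. The members and lists were chosen with earlier results of these data known. Marker lists for other cell types and regions were checked in every library. Some members are counted in the totals but not reported here by name or drawn in the figures. P-values measure the spread between 3 animals a group.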

Additional observations from a re-analysis of the deposited data

How the results depend on the processing

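The counts of 0 receptor genes between genotypes held under all 15 other alternatives at 4 months and all 12 at 19 months, and that of the interaction under all 12. Leaving out 1 library in turn gave 0 to 11 called genes at 4 months, 0 at 19 months, 7 to 16 between ages in WT, 2 to 5 between ages in *Gde2*KO, 0 to 16 for the interaction and 0 to 2 for transcript usage at 4 months, with 11 and 16 both reached without WT library 3 of 4 months. In WT the age count of 11 became 21 with the adjusted p alone and 7 without both libraries of low depth. It was lower without WT libraries 1 and 2 of 4 months, where a smaller share of all genes was called as well. The same held when both libraries of low depth were also left out, a fit chosen after seeing the data. Each of these fits rests on 1 WT library of 4 months. The 21 were 50% of the members, where 28.2% of all genes passed the adjusted p alone. In *Gde2*KO the count of 4 became 10 with the adjusted p alone, 23.8% of the members against 32.3% of all genes. It became 2 with no filter, 4.44% against 9.17%, and 2 with median-of-ratios scaling, 4.76% against 8.92%. Transcript usage at 19 months gave 1 gene without both libraries of low depth, where 1% of all genes were called. *Gabra5* in WT changed sign to 0.079 and *Gabrd* to -0.20 without WT libraries 1 and 2, and to 0.18 and -0.25 when both low-depth libraries were also left out. The cause was not tested.

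Exon shares, an analysis added after seeing the data, changed sign for 2 genes whose differences had not passed the test. *Gria2* flip was -0.84 points without *Gde2*KO library 3 of 4 months and -0.18 without *Gde2*KO library B, in a range of -0.84 to 1.23 over single libraries left out. *Gria4* flip was -0.88 without both low-depth libraries, -0.12 and -0.95 without *Gde2*KO library 1 or 2 of 4 months, -0.99 without WT library A and -0.44 without *Gde2*KO library C, in a range of -0.99 to 1.08.

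Samples of 4 months share replicate numbers, but the correlations of same-numbered deviations were 0.06, 0.01 and -0.05, so the numbers were not taken as pairs. With a replicate block 0 receptor genes were called at 4 months, with 21 in place of 24 over all genes, and 0 for transcript usage. No paired analysis was possible at 19 months because the columns carry no numbers. At 1 read for 8.29 normalized counts, *Gde2*KO library A cannot resolve the rho subunit genes.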
